A study of Mus musculus with 5 samples.

Results

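The mitochondria-rich barcodes of single-nucleus RNA-seq (snRNA-seq) libraries of the mouse central amygdala (CeA) were examined, as a readout of RNA from outside the nucleus in fed and fasted mice. A barcode was taken as mitochondria-rich when at least 5% of its unique molecular identifiers (UMIs, single captured RNA molecules) came from the 13 mt- genes, the protein-coding genes of the mitochondrial genome. This rule selected 13537 of 23839 barcodes over 5 libraries. They were compared with 7161 kept nuclei of the same libraries, barcodes with 500 to 8000 genes and an mt- share under 0.8%. Because the mt- share chose the members, every contrast of mitochondria-rich barcodes with nuclei is given as a description without a test, and only fed against fasted was tested.

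Each library held CeA nuclei pooled from 1 male and 1 female mouse, labelled C57BL6. Fed replicates 1 and 2 and fasted replicates 1 and 2 came from mice of 8 weeks. Fasted replicate 1 was taken after 20 h and fasted replicate 2 after 21 h without food. Fed replicate 3 came from Htr2a-Cre mice of 12 weeks that carried a Cre-dependent mCherry delivered by AAV, so genotype, virus and age in this library cannot be told apart from replicate. The library is the replicate throughout, and p-values measure the spread between libraries of pooled mice.

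A nucleus holds newly made transcripts that still contain introns, together with a few RNAs that stay there. The cytoplasm of the cell body, dendrites, astrocyte processes and myelin holds spliced mRNA, ribosomes and mitochondria, and transcripts made on the mitochondrial genome are normally found outside the nucleus. In snRNA-seq, barcodes rich in mt- UMIs are usually discarded as remnants of lysed cells. The central amygdala consists mainly of inhibitory neurons and takes part in the control of feeding and of fear.

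Fed replicates 1, 2 and 3 gave 3152, 910 and 123 mitochondria-rich barcodes, and fasted replicates 1 and 2 gave 4800 and 4552. As a share of all barcodes of the library this was 67.7, 38.8 and 7.26% in the fed and 61.1 and 62.4% in the fasted libraries. The fed libraries spanned the fasted ones, with fed replicate 1 the highest of all and fed replicate 3 the lowest. The mean was 37.9% ± 30.2 (SD, n = 3) in fed and 61.8% ± 0.91 (SD, n = 2) in fasted libraries, a difference of 23.9 percentage points that did not pass an exact permutation test (two-sided p = 0.6, adjusted p = 1 over 8 library measures). With 3 against 2 libraries the smallest p that this test can give is 0.2. The lowest UMI count of any deposited barcode was 500, 501 and 2973 in the fed and 514 and 1191 in the fasted libraries, so the depth at which barcodes entered the matrices differed along with these shares.

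**Figure D1:**
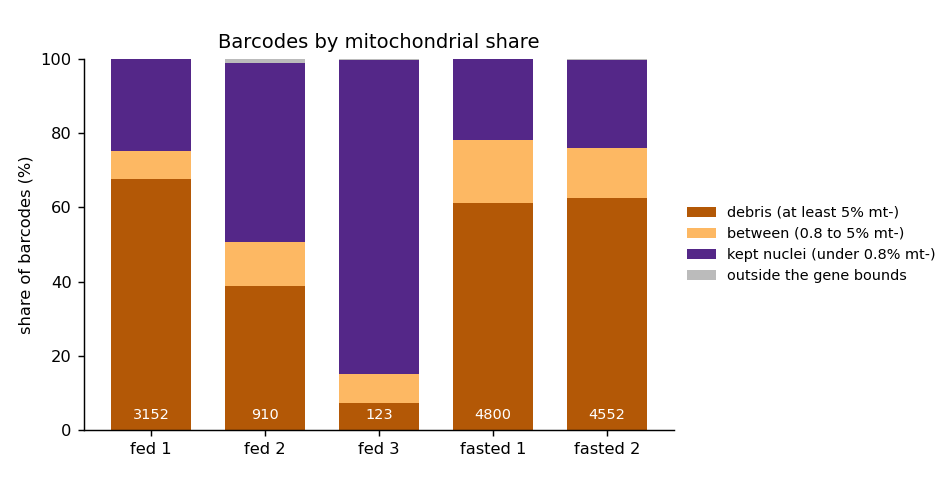
Share of barcodes (%, y axis) by mt- class in each of the 5 libraries (x axis), with the number of mitochondria-rich barcodes (labelled debris) printed in each bar. Mitochondria-rich barcodes made up 61.1 to 67.7% of fed replicate 1 and both fasted libraries, and 7.26% of fed replicate 3.

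The mitochondria-rich barcodes were shallower than the nuclei. Their median number of genes was 622, 613.5 and 1851 in the fed and 887.5 and 1271.5 in the fasted libraries, against 3148, 4190.5, 4111.5, 2736 and 4521.5 in the kept nuclei. Summed per library they held 4301569, 1185448 and 468423 UMIs of nuclear-encoded genes in the fed and 9130895 and 11682365 in the fasted libraries, so fed replicate 3 gives the least precise values. Whether a droplet also held a nucleus cannot be read from these counts. Barcodes with 2000 genes or more made up 3.24, 3.41 and 39.0% of the mitochondria-rich barcodes in the fed and 4.92 and 11.2% in the fasted libraries. Any pair of libraries shared at most 11 mitochondria-rich barcode sequences, 0.242% of the smaller set.

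Barcodes just inside and just outside the threshold were few. Except just outside it in fed replicate 3, they held intermediate levels of ribosomal protein RNA. In fasted replicate 1, the 66 barcodes with an mt- share of 4.5 to 5% had a median of 1147 genes and 2.71% of nuclear-encoded UMIs from ribosomal protein genes, and the 62 barcodes at 5 to 5.5% had 1166 genes and 2.92%. In fed replicate 1 the share was 5.92% in 18 barcodes just outside and 2.33% in 9 just inside. It also fell from 3.29 to 1.34% in fed replicate 2 and from 7.39 to 5.86% in fasted replicate 2. In fed replicate 3 it was 0.182% in 3 barcodes just outside and 2.87% in 1 just inside. Over wider bins, ribosomal protein genes rose steadily with the mt- share. They held 0.200, 0.126 and 0.140% of nuclear-encoded UMIs in the fed and 0.314 and 0.289% in the fasted libraries among barcodes under 0.8%, and 5.92, 6.99, 2.05, 4.44 and 8.36% among barcodes at 5 to 10%. Above 20% they held 22.7, 18.7 and 16.5% in the fed and 21.9 and 18.0% in the fasted libraries. Long intron-rich neuronal genes such as Lsamp and Rbfox1 ran the other way, from 7.97, 8.87, 8.02, 7.77 and 8.37% below 0.8% to 1.49, 2.58, 3.04, 1.69 and 2.75% above 20%.

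**Figure D2:**
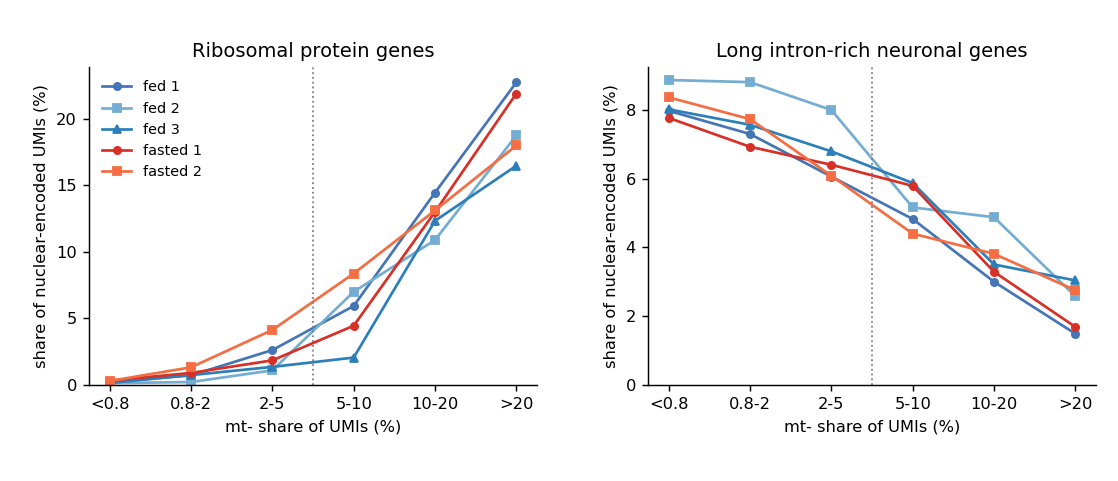
Share of nuclear-encoded UMIs (%, y axes) held by ribosomal protein genes (left) and long intron-rich neuronal genes (right) in barcodes binned by mt- share (%, x axes), with a line per library and a dotted line at the 5% threshold. The ribosomal share reached 16.5 to 22.7% in the top bin of every library, and the long neuronal share fell to 1.49 to 3.04%.

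The same contrast was present barcode by barcode after each barcode was thinned to 500 UMIs, which left out 424, 51 and 0 mitochondria-rich barcodes of the fed and 9 and 0 of the fasted libraries. The median mitochondria-rich barcode then held 89, 54 and 67 ribosomal protein UMIs in the fed and 89 and 59 in the fasted libraries, and the median nucleus held 0 or 1. Of the 18 astrocyte RNAs it held 23, 17, 17, 25 and 21 UMIs, and the median nucleus held 0. The long neuronal genes gave 12, 26, 18, 12 and 21 UMIs against 38 to 42 in nuclei. RNA of these genes was therefore lower in these barcodes and not missing from them. Intronic reads were not separated and nuclei of all cell types were pooled, so cell type make-up and cell compartment cannot be told apart here.

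Astrocyte RNA was found in most mitochondria-rich barcodes, and myelin RNA reached the same number of UMIs in fewer of them. After thinning, 92.6, 76.7 and 77.2% of the mitochondria-rich barcodes of the fed and 93.2 and 90.7% of the fasted libraries held at least 10 astrocyte UMIs. In fed replicate 1, 89.0% held Apoe, the apolipoprotein made by astrocytes, against 4.08% of nuclei. Gad2, which makes GABA in inhibitory neurons, was held by 8.21% against 10.9% of nuclei. At least 10 UMIs of the myelin list were held by only 4.40, 3.26 and 7.32% of barcodes in the fed and 4.26 and 2.57% in the fasted libraries, and these carried 26.4, 23.1, 41.9, 22.8 and 16.6% of all myelin UMIs. The myelin list gives fewer UMIs per barcode than the astrocyte list, so the same number is harder to reach, and Mbp alone was held by 47.3, 40.2 and 39.0% of barcodes in the fed and 57.5 and 53.7% in the fasted libraries. The median astrocyte count in these myelin-rich barcodes was 14, 4, 0, 20 and 11 UMIs, below the 24, 17, 19, 25 and 21 UMIs of the other barcodes in every library.

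Counts were next summed per library, and levels were taken as CPM, the count of a gene scaled to a common total of nuclear-encoded UMIs. Of 4104 genes with a mean of at least 50 CPM, 828 (20.2%) were at least 2-fold higher in mitochondria-rich barcodes than in nuclei in all 5 libraries, and 753 (18.3%) were at least 2-fold lower. Genes entered by their mean over both fractions, so genes low in nuclei could enter only by a higher level in mitochondria-rich barcodes. The 828 and the 20.2% carry this limit. The 828 higher genes held 48.7, 40.4 and 33.8% of the nuclear-encoded UMIs of mitochondria-rich barcodes in the fed and 46.2 and 39.2% in the fasted libraries, against 2.29 to 2.87% in nuclei. The 753 lower genes held 9.60 to 14.8% against 38.2 to 39.3%. The median log2 difference over all 4104 genes was -0.61, and over 18496 genes with no filter on level it was 0.44. The part of the abundant higher RNAs in the median of -0.61 was not tested. Counting mt- UMIs in the totals moved this median by a further -0.31 and gave 626 higher and 1202 lower genes.

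Of the 15 genes with the largest difference, 8 encode cytoplasmic ribosomal proteins (Rps29, Rps21, Rps28, Rpl35a, Rpl9, Rpl37, Rps3 and Rpl39) and 3 encode metallothioneins (Mt1, Mt2 and Mt3), small proteins that bind zinc and copper. This ranking carries the same limit of entry. Mt1 stood at 5681, 4781 and 3259.9 CPM in the mitochondria-rich barcodes of the fed and 8116 and 7122 CPM in those of the fasted libraries, against 26.5, 12.1, 14.1, 69.9 and 89.9 CPM in nuclei. Its median difference of 7.75 on the log2 scale, 215-fold, was the largest of the 4104 genes. Every library of mitochondria-rich barcodes lay far above every library of nuclei, which the choice of genes 2-fold higher in every library favours. The others were S100a6 and S100a1, which bind calcium, Aldoc, the aldolase of astrocytes, and Fth1, the heavy chain of the iron store ferritin. Fth1 stood at 11150, 8237, 5986, 12807 and 9704 CPM against 63.2, 20.9, 29.4, 151 and 166 CPM, a log2 difference of 7.46. Rps29, also at 7.46, stood at 10890, 7971, 7544, 9399 and 7335 CPM against 62.0, 20.9, 29.3, 108 and 108 CPM.

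Of the 15 genes with the largest difference in the other direction, 13 have names. Ephb2, an ephrin receptor of axons and synapses, stood at 17.2, 9.28, 8.54, 22.8 and 13.4 CPM in mitochondria-rich barcodes and 114, 78.5, 98.6, 108 and 73.5 CPM in nuclei, a log2 difference of -2.73. Kazn, a gene of 375 kb, stood at 242, 181, 333, 386 and 253 CPM against 1599, 1233, 1512, 1976 and 1442 CPM, a difference of -2.51. In neither gene did the libraries of mitochondria-rich barcodes overlap those of nuclei, which the choice of genes 2-fold lower in every library favours. The others were Ryr1 (-2.67), a calcium release channel, Lrfn2 (-2.62), a synaptic adhesion molecule, Fstl4 (-2.50), Slc35f3 (-2.49), Col4a2 (-2.48), Epha10 (-2.45), the kainate receptor subunit Grik3 (-2.41), Man1c1 (-2.40), the cadherin Cdh4 (-2.39), Csmd2 (-2.39) and Slit3 (-2.37), a guidance ligand.

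Gene length differed between the groups, although the rule of entry also favours short genes among the higher ones. The higher genes had a median length in the genome of 12.4 kb, against 69.9 kb over all genes. Of the 191 genes under 5 kb, 94.8% were higher in every library, with a median log2 difference of 4.97. Genes entered by their mean over both fractions. Only 20 of these 191, and 49 of the 224 genes of 5 to 10 kb, reached 50 CPM in the nuclei. The others could enter only by a higher mean level in mitochondria-rich barcodes. Nothing is therefore read from this share, from this median or from the 12.4 kb. The 805 genes of 20 to 50 kb had a median of -0.00. Of the 205 genes over 500 kb, 204 of which reached 50 CPM in the nuclei, 0 were higher and 65.4% were lower, with a median of -1.38. Reads in introns were counted, and exonic and intronic reads were not separated here.

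**Figure D3:**
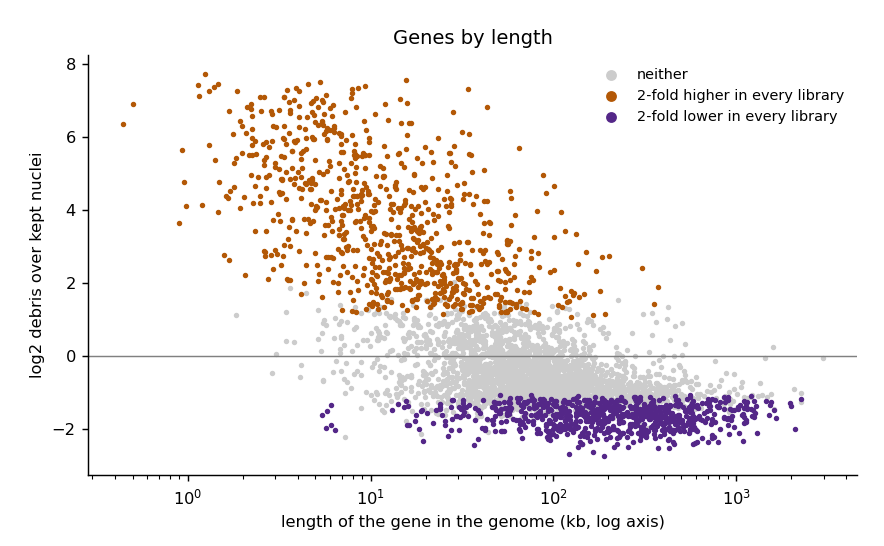
Length of each gene in the genome (kb, log x axis) against its median log2 difference of mitochondria-rich barcodes (labelled debris) over kept nuclei (y axis) for 4103 genes, coloured where the gene was 2-fold higher or lower in every library. Genes over 500 kb had a median of -1.38. Genes under 5 kb, most of which entered only by their level in mitochondria-rich barcodes, had a median of 4.97.

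The 30 bases around the annotated start of transcription are shown for the 7 ribosomal protein genes among the 15 largest differences that have an entry in the promoter table, and for Mt1, Ephb2 and Kazn at the ends of the ranking, because mRNAs of ribosomal proteins typically begin with a run of pyrimidines, the 5′ TOP motif, that couples their translation to nutrient signals. The start is base 16 of each window. Sequences are those of RefSeq on GRCm38.p6, on the strand of the gene, and capitals mark a run of at least 7 letters that are all C or T and that touches the 10 bases on either side of the start.
Rps21, chr2:180257364-180257393, plus strand: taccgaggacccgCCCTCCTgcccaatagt
Rpl39, chrX:37085208-37085237, minus strand: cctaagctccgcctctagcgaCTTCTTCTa
Rps28, chr17:33824548-33824577, minus strand: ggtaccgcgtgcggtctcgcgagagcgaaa
Rpl35a, chr16:33056438-33056467, plus strand: gcggggcgtgcgtcccacaaggccgcgcgg
Rpl9, chr5:65391417-65391446, minus strand: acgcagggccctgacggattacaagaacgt
Rpl37, chr15:5116598-5116627, plus strand: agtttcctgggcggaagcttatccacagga
Rps3, chr7:99483695-99483724, minus strand: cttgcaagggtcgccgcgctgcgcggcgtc
Mt1, chr8:94179074-94179103, plus strand: ggcgctccagggagctctgcactccgcccg
Ephb2, chr4:136835998-136836027, minus strand: gtgcccagcgctggcggagcccgggtcccc
Kazn, chr4:142215444-142215473, minus strand: acaggTCCCTCTgctccgaactcacaggtt
Such a run was found in 2 of the 7 ribosomal protein genes, Rps21 and Rpl39, and in 4 of the 12 matched genes with the largest difference in the other direction (Ryr1, Kazn, Col4a2 and Slit3). Of the 63 ribosomal protein genes matched in the promoter table, 31 (49.2%) held a run. The share was 17.4% (106 of 609) among the other higher genes, 22.8% (132 of 579) among the lower genes, 20.0% (658 of 3283) among all genes at 50 CPM and 19.5% (5283 of 27025) over the whole table. The search read the strand of the gene only, and it describes letters at annotated starts, not the starts used in these mice.

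Grouped by function, the translation and mitochondrial genes moved together. Entry was by the mean over both fractions, so members low in nuclei could enter only by a higher level in mitochondria-rich barcodes. The counts of higher list members and the list medians, here and below, carry this limit. The counts stand beside 20.2% of all 4104 genes, a share with the same limit. Shares of UMIs held by a list count all its members and do not depend on entry. All 78 cytoplasmic ribosomal protein genes at 50 CPM were higher in every library, with a median log2 difference of 6.26. The full list of 83 genes held 18.7, 14.2 and 12.1% of nuclear-encoded UMIs in the mitochondria-rich barcodes of the fed and 17.6 and 13.4% in those of the fasted libraries. In nuclei it held 0.126 to 0.314%. Reads of these genes can also match their many processed pseudogenes, so single values are uncertain where the counting split them. Of 76 nuclear-encoded genes of the respiratory chain, whose products are imported into mitochondria, 72 were higher and 0 lower, with a median of 4.62. An example is the cytochrome c oxidase subunit Cox8a at 7.10. Of 13 genes of glycolysis and lactate, 8 were higher and 1 lower (median 3.42), from Aldoc at 7.51 to the phosphofructokinase Pfkp at -1.26, with Gapdh at 5.43. Of 10 heat shock and chaperone genes, 8 were higher, among them Ubb, a polyubiquitin gene, at 6.76 and Hspa8, a constitutive chaperone, at 3.08. All 15 ferritin, thymosin and other short cytosolic RNAs were higher, with a median of 5.39.

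Glial RNAs were strongly represented. Kept nuclei of all cell types were pooled, so cell type make-up and cell compartment cannot be told apart for these RNAs. All 16 astrocyte RNAs at 50 CPM were higher in every library, with a median of 5.57, and the list held 5.17, 4.73, 3.49, 5.08 and 4.92% of UMIs against 0.106 to 0.176% in nuclei. Members included Apoe at 6.62, the secreted protease inhibitor Cst3 at 5.62 and the glutamate transporter Slc1a2 at 3.36. All 10 myelin RNAs at 50 CPM were higher, with a median of 4.28. Mbp, the main basic protein of myelin, stood at 2320.3, 2062, 1279, 2905 and 2239.8 CPM against 143, 132, 113, 149 and 157 CPM in nuclei, and Cryab, a small heat shock protein of oligodendrocytes, at 6.39 on the log2 scale, was the highest of the list. Of 10 long intron-rich oligodendrocyte genes, a list chosen after values had been seen, 0 were higher and 0 lower, with a median of -0.57. The 4 microglia RNAs at 50 CPM were higher, with a median of 2.47.

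RNAs of the neuronal lists were split between the fractions. Whether each of these RNAs came from neurons was not tested, and cell type make-up and cell compartment cannot be told apart here either. Of 26 neuronal cytoplasm and dendrite RNAs, 19 were higher and 0 lower, with a median of 2.54. Tubulin Tuba1a was at 5.86, creatine kinase Ckb at 4.86 and the axonal motor Kif5a at 2.92, whereas the dendritic mRNAs Map2 and Camk2a were at 0.63 and 0.62 and did not reach 2-fold in every library. Synaptic vesicle RNAs ranged from Vamp2 at 3.43 to Syt1 at -1.40, with 4 of 12 higher, 1 lower and a median of -0.13. The 9 RNAs of striatal and central amygdala output neurons gave 3 higher and 3 lower, from Pcp4, a small neuronal peptide, at 4.52 to the phosphodiesterase Pde10a at -2.03. Of 5 neuropeptide RNAs, 0 reached 2-fold in every library in either direction, and they ranged from somatostatin (Sst) at 1.73 to the granule protein Chga at -0.07, with enkephalin (Penk) at 0.44. The GABA-synthesising enzymes Gad1 and Gad2, at -0.47 and -0.69, lay close to the median of all genes. Of 20 long intron-rich neuronal genes, 0 were higher and 13 lower (median -1.26), with Nrxn3 at -1.48 and Lsamp at -1.29.

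**Figure D4:**
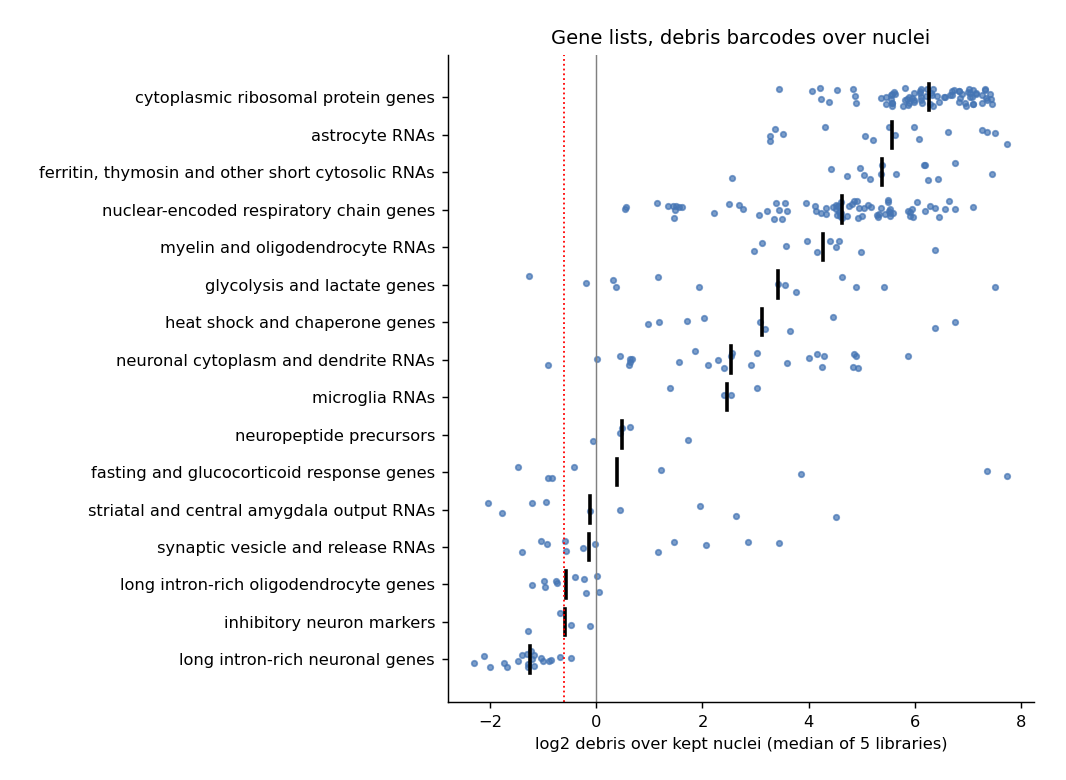
Log2 difference of mitochondria-rich barcodes (labelled debris) over kept nuclei (x axis) for the members of each gene list (y axis), each point a gene's median over 5 libraries, black ticks the list medians and the dotted line the median of all genes at -0.61. The ribosomal, astrocyte and respiratory lists lie to the right with medians of 6.26, 5.57 and 4.62, and the long neuronal genes lie to the left at -1.26. Members low in nuclei entered only by their level in mitochondria-rich barcodes.

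Defining markers of the choroid plexus and of the endothelial barrier were at or near 0, although the lists they belong to took a larger share of UMIs in mitochondria-rich barcodes than in nuclei. Ttr, the transthyretin that fills choroid plexus cells, had 2 UMIs in fasted replicate 1 and 0 in the other libraries, and Cldn5, of the endothelial barrier, had 1, 0, 0, 1 and 5 UMIs. The 11 endothelial RNAs took 0.0148, 0.0173 and 0.0152% of UMIs in the fed and 0.0152 and 0.0233% in the fasted libraries, against 0.00525 to 0.00674% in nuclei, and their only member at 50 CPM, Bsg, stood at 1.77 on the log2 scale. The 6 choroid plexus RNAs took 0.00692 to 0.0269% against 0.00558 to 0.00734%, with Enpp2 as the only member at 50 CPM, at 1.66. The viral mCherry was found only in fed replicate 3, the library that received it. There it gave 42 UMIs in 29 of 123 mitochondria-rich barcodes, 89.7 CPM (exact Poisson 95% interval 64.6 to 121), against 3152 UMIs in 436 of 1438 nuclei, 147 CPM (142 to 152). These intervals cover counting error only.

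The mt- genes chose the barcodes, so only their proportions to each other are described. mt-Co1, a subunit of cytochrome c oxidase, took 16.7% ± 0.616 (SD, n = 5) of mt- UMIs, followed by mt-Atp6 at 15.1% ± 0.477, mt-Cytb at 14.8% ± 1.38 and mt-Co2 at 14.0% ± 0.183, and mt-Nd6, the only member made from the other strand, took 0.133% ± 0.0411. Between fed and fasted, mt-Co3 took 10.8, 11.3 and 11.0% in the fed and 10.4 and 10.7% in the fasted libraries, and mt-Nd2 took 5.42, 5.69 and 5.35% and 5.05 and 5.16%. Both were lower in each fasted than in each fed library. Neither passed the exact permutation test (two-sided p = 0.2, the smallest the design allows, adjusted p = 1 over 13 genes).

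The second question was which nuclear-encoded RNAs of the mitochondria-rich barcodes differed between fasted and fed mice. In such sums, fewer contributing cells of a type and less RNA per cell cannot be told apart. The edgeR quasi-likelihood test on 12434 genes called 9 genes at an adjusted p of 0.05 (0.0724% of those tested), 7 higher and 2 lower in fasted libraries, and DESeq2 called 5 higher and 7 lower. In each of the 9 genes every fasted library lay on the same side of every fed library, which the test that chose them favours. The share of all tested genes without overlap was not counted, so overlap here and below is description only. Of the 7 that rose, 5 (Fkbp5, Cdkn1a, Sult1a1, Plin4 and Hif3a) belong to the list of fasting and glucocorticoid response genes, which was chosen with earlier results of these data known and is no independent evidence of its direction. Coordinates below are those of GENCODE vM39 on GRCm39 and span the whole gene, since reads in introns were counted.

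Fkbp5 (chr17:28618058-28737521), a co-chaperone that restrains the glucocorticoid receptor and is itself induced by it, stood at 44.2, 52.3 and 34.2 CPM in the fed and 109 and 130 CPM in the fasted libraries. Its log2 fold change was 1.41 ± 0.227 (SE) with an edgeR adjusted p of 0.0113, and without fed replicate 3 it was 1.30 and was not called (edgeR adjusted p = 0.108). Cdkn1a (chr17:29309936-29319701), the cell cycle inhibitor p21, gave 28, 0 and 1 UMIs in the fed and 369 and 714 UMIs in the fasted libraries, or 6.51, 0 and 2.13 against 40.4 and 61.1 CPM. The change was the largest of the 9, at 3.45 ± 0.395 with an edgeR adjusted p of 0.000227, but it rests on few fed UMIs and DESeq2 did not call it (adjusted p = 1). Without fed replicate 1, which held most of these UMIs, the change was 6.36 and was called by edgeR. Sult1a1 (chr7:126271299-126275615), a sulfotransferase of phenols and steroids, stood at 17.4, 14.3 and 14.9 against 91.2 and 78.2 CPM. It rose by 2.37 ± 0.241 (edgeR adjusted p = 6.25e-05) and was called under each of 17 alternatives. The fed libraries of Sult1a1 lay close together and well below both fasted libraries. Plin4 (chr17:56406617-56416931), a lipid droplet coat protein, stood at 3.02, 8.44 and 6.40 against 13.6 and 29.4 CPM (2.18 ± 0.409, edgeR adjusted p = 0.0477). Hif3a (chr7:16764918-16796352), a hypoxia-inducible factor of the alpha family, stood at 11.2, 9.28 and 8.54 against 32.0 and 24.9 CPM (1.44 ± 0.264, edgeR adjusted p = 0.0425). These last calls lie close to the threshold, and Plin4, at 1.49 without fed replicate 1 and 1.52 without fasted replicate 2, was lost under 6 of 15 alternatives and Hif3a under 8 of 16.

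Ptgds (chr2:25352795-25362601), the prostaglandin D synthase of oligodendrocytes, meninges and choroid plexus, stood at 157, 270 and 252 CPM in the fed and 968 and 1419.5 CPM in the fasted libraries. It was the most abundant of the 9 and rose by 2.43 ± 0.309 (edgeR adjusted p = 0.000749). The list of 6 choroid plexus RNAs beside it took 0.00879, 0.0178 and 0.0269% of UMIs in the fed and 0.00692 and 0.0105% in the fasted libraries, and Ttr had at most 2 UMIs in any library. Enpp2 was the only member at 50 CPM, so the share of the list is not read as choroid plexus content. The part of choroid plexus, meninges or oligodendrocytes in the rise of Ptgds was not tested. Itgad (chr7:127753548-127822988), an integrin alpha subunit of leukocytes, stood at 2.56, 3.37 and 2.13 against 15.4 and 20.8 CPM, which was 2.71 ± 0.354 with an edgeR adjusted p of 0.000853. It rests on few fed UMIs, 11, 4 and 1 against 141 and 243 in the fasted libraries. Its call was lost under 2 of 15 alternatives, among them an mt- share of at least 10% (2.17, edgeR adjusted p = 0.0993). The list of 10 microglia RNAs beside it took 0.0597, 0.0547 and 0.0495% of UMIs in the fed and 0.0723 and 0.0639% in the fasted libraries. Of its 10 members 0 were called, beside 0.0724% of all genes tested. All 10 had a positive change, with a median of 0.31, beside 6231 positive of 12434 genes over all. In the nuclei of the same libraries all 10 were also positive, with a median of 0.79, beside 6759 of 14063 genes over all. There 5 were called with the replicate block described below, beside 2.05% of all genes tested.

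The genes that fell, Ninj2 and Prr5l, are both expressed by mature oligodendrocytes. Ninj2 (chr6:120070066-120177490), an adhesion molecule, stood at 31.2, 39.6 and 100.3 CPM in the fed and 8.21 and 8.73 CPM in the fasted libraries, a change of -2.47 ± 0.330 (edgeR adjusted p = 0.000939). Prr5l (chr2:101543450-101713409), a binding partner of the kinase complex mTORC2, stood at 93.7, 154 and 376 against 44.8 and 47.6 CPM, a change of -2.04 ± 0.373 (edgeR adjusted p = 0.0425). Fed replicate 3 was the highest in both. Long intron-rich oligodendrocyte genes as a list took 0.280, 0.531 and 0.785% of UMIs in the fed and 0.255 and 0.325% in the fasted libraries, with fed replicate 3 again the highest. Ninj2 and Prr5l are not on that list, and its part in these changes was not tested. Without fed replicate 3, Ninj2 was still called, while the change of Prr5l was -1.41 and was not called (edgeR adjusted p = 0.135). With the replicate block described next it was -1.38 and was called, and DESeq2 without the block did not call it (adjusted p = 0.523).

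**Figure D5:**
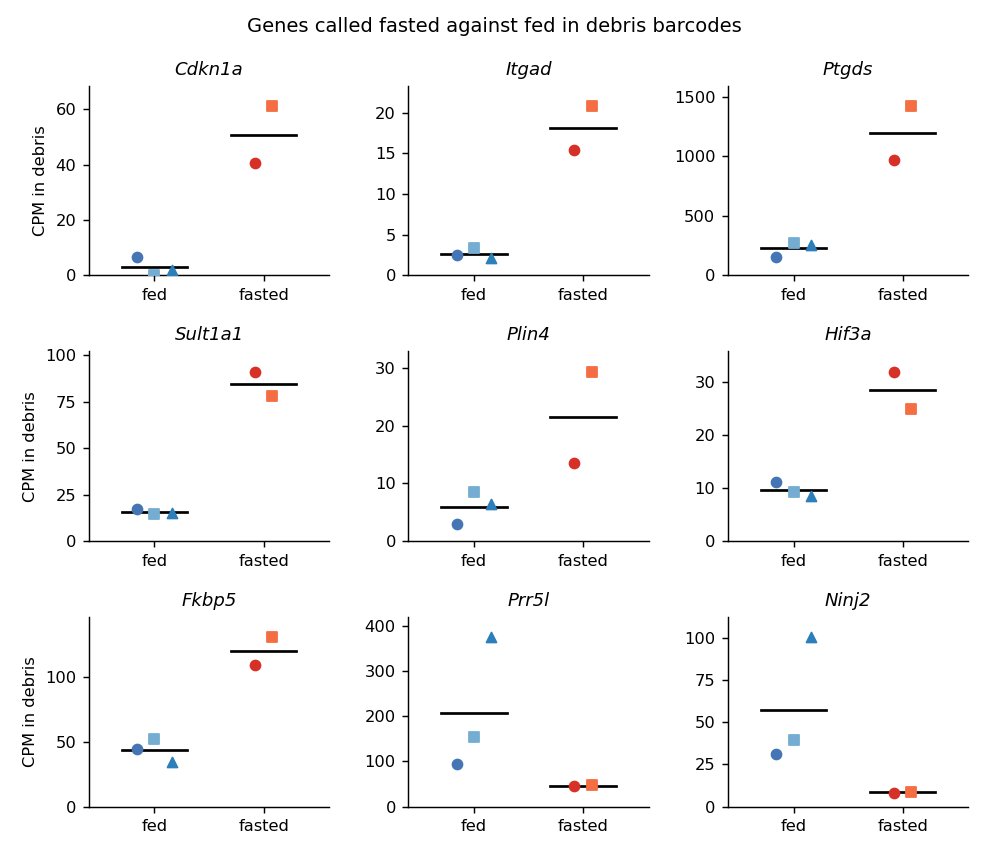
CPM in the mitochondria-rich barcodes (y axes) of each library by feeding state (x axes) for the 9 called genes, with circles for replicate 1, squares for replicate 2, the triangle for fed replicate 3 and bars for group means. Fed and fasted libraries do not overlap in any of the 9, which were chosen by this difference, and fed replicate 3 is the highest library for Prr5l and Ninj2.

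The number of calls depended on the fit. The study prepared its same-numbered fed and fasted datasets together. The labels name no batch, and their replicate numbers were taken to match that numbering. With this inferred pairing as a replicate block, edgeR called 195 genes (1.57%), of which 90 fell, and all 9 were among them in the same direction. Here and in the blocked fits below, the block left 1 residual degree of freedom and fed replicate 3 did not inform the feeding term. Without fed replicate 1 the unblocked count was 97, without fed replicate 3 it was 5, without fasted replicate 1 it was 27 and without fasted replicate 2 it was 23.

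Within the list of fasting and glucocorticoid response genes, 18 were tested, 5 rose and 0 fell. Over all genes tested, 0.0724% were called in either direction. The median log2 fold change of the list was 0.80, against 0.00 over all genes. The list was chosen with earlier results of these data known. Its counts and median, without and with the block, are therefore description only. With the block 11 rose, beside 1.57% of all genes called in either direction. The 6 added were Txnip (1.24), an inhibitor of thioredoxin, Zbtb16 (0.82), the kinase Sgk1 (0.79), Tsc22d3 (0.74), which encodes the glucocorticoid-induced leucine zipper, Mt2 (0.55) and Mt1 (0.52), the last pair also astrocyte RNAs. Tsc22d3 stood at 95.3, 97.9 and 76.9 CPM in the fed and 132 and 219 CPM in the fasted libraries, with no overlap. Sgk1 stood at 52.1, 96.2 and 98.2 against 95.5 and 160 CPM, and these groups overlapped. Foxo3, Foxo1 and Irs2, which act in insulin signalling, had log2 fold changes of 0.05, 0.17 and 0.09 and were not called in either fit.

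The lists that set the mitochondria-rich barcodes apart from nuclei gave no feeding calls in the unblocked fit. That fit called 0.0724% of all genes tested, so nothing is read from the absence of calls in lists of this size. The median log2 fold change was 0.08 for 80 ribosomal protein genes, 0.05 for 82 respiratory genes, -0.02 for 18 astrocyte RNAs and -0.00 for 15 myelin RNAs, and 0 of their members were called. The ribosomal and respiratory medians changed sign, to -0.09 and -0.12, under the block. The block called 1.57% of all genes tested. Of the myelin list, Mal (1.02), a myelin proteolipid, rose under it, and Car2 (-0.46), Aspa (-1.15) and Opalin (-0.92) fell. Of the astrocyte list, Mt1 (0.52) and Mt2 (0.55) rose, and the water channel Aqp4 (-0.73) and Sparcl1 (-0.28) fell. Mal stood at 135, 149 and 160 CPM in the fed and 257 and 339 CPM in the fasted libraries, and Aspa, which degrades N-acetylaspartate, at 32.8, 79.3 and 149 against 19.2 and 27.8 CPM. In neither did the groups overlap. Immediate-early genes, which mark recent neuronal activity, were low. Of the 13 tested 0 were called, from which nothing is read at so low a share over all genes. Fos gave 15, 5 and 1 UMIs in the fed and 49 and 42 UMIs in the fasted libraries, 3.49, 4.22, 2.13, 5.37 and 3.60 CPM.

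The kept nuclei of the same libraries were tested in the same way. The edgeR quasi-likelihood test called 0 of 14063 genes (0%), with 812 genes at an unadjusted p under 0.05, while the likelihood ratio test called 167, DESeq2 112 and the replicate block 288 (2.05%). Without fed replicate 1 the quasi-likelihood count was 47. All 9 genes called in the mitochondria-rich barcodes had the same sign in nuclei. Fkbp5 stood at 91.3, 109 and 57.5 CPM in the nuclei of the fed and 193 and 203 CPM in those of the fasted libraries, and Sult1a1 at 0.923, 1.73 and 0.327 against 3.86 and 5.33 CPM, neither with overlap. Of the 195 genes called with the block in mitochondria-rich barcodes, 36 (18.5%) were among the 288 called with it in nuclei, 12.5% of those, and 35 of the 36 had the same direction. The nuclei and the mitochondria-rich barcodes come from the same libraries.

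The difference between the feeding effects of the fractions was tested directly as an interaction over 10 sums with a term for each library. The edgeR quasi-likelihood test called 0 of 14151 genes (0%), with 625 at an unadjusted p under 0.05, while the likelihood ratio test called 54 and DESeq2 77. With the replicate block 239 genes (1.69%) were called, 198 of them with a lower fasted-over-fed change in mitochondria-rich barcodes than in nuclei, and 68 of the 81 ribosomal protein genes tested were among those. These blocked calls rest on 1 residual degree of freedom. Without fed replicate 1 the unblocked count was 111. The median interaction of the ribosomal genes was -0.77, beside 0.09 over all genes. In nuclei their median feeding change was 0.97 and 79 of 81 were positive, at 0.126 to 0.314% of nuclear UMIs. The mt- share of the kept nuclei was 0.329 and 0.238% in the fasted against 0.173, 0.152 and 0.107% in the fed libraries. The choice of nuclei used this share, with a limit of 0.8%, so it is given as description only. The part of residual cytoplasmic RNA in the nuclei in this interaction was not tested. The smallest adjusted p belonged to Sec14l5 (-1.58, edgeR adjusted p = 0.0595). It was followed by genes that shared an edgeR adjusted p of 0.0928, among them Mt2 and ribosomal protein genes such as Rps29 (-1.60) and Rpl39 (-1.37). On the positive side, where the change was larger in mitochondria-rich barcodes, the smallest adjusted p belonged to Pkp1 (edgeR adjusted p = 0.108). It gave 3, 2 and 0 UMIs in the mitochondria-rich barcodes of the fed and 16 and 12 UMIs in those of the fasted libraries. As CPM this was 0.697, 1.69 and 0 against 1.75 and 1.03, so the groups overlapped. In nuclei Pkp1 stood at 0.821, 1.62 and 0.420 CPM in the fed and 0 and 0.0337 CPM in the fasted libraries. Adarb2, a member of the RNA-editing enzyme family, followed at 1.01 (edgeR adjusted p = 0.123). Its groups overlapped in mitochondria-rich barcodes, at 102, 181 and 126 CPM in fed against 174 and 260 CPM in fasted libraries. Ddc, the decarboxylase of aromatic amino acids, was next at 1.05 (edgeR adjusted p = 0.146). Ddc stood at 20.9, 20.2 and 23.5 CPM in the mitochondria-rich barcodes of the fed and 34.3 and 36.2 CPM in those of the fasted libraries, with no overlap.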

How the data were processed

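The deposited UMI counts of 10x snRNA-seq (22532 genes, 5 filtered matrices) were produced by the authors with Cell Ranger with introns included. The submitters' processing notes name Cell Ranger 2.1.1 and mm10, while the methods of the study name a later version and GRCm39, and which made these counts could not be settled. No normalisation had been applied, no further doublet removal was run here, and depth was 17321997 to 53146326 UMIs per library.

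Counts of nuclear-encoded genes were summed per library over mitochondria-rich barcodes and over kept nuclei. CPM scale each count to a common total of nuclear-encoded UMIs. Genes were called 2-fold higher or lower only with a mean of at least 50 CPM over the 10 sums, and a count below 3 was set to 3. Fed and fasted were compared with edgeR 4.0.16 in R 4.3.3 (TMM, filterByExpr, quasi-likelihood test, Benjamini-Hochberg adjustment), and single measures with exact permutation tests. The likelihood ratio test (the test of the study), DESeq2 1.42.0, other thresholds, filters, scalings and depths, each library left out and a replicate block were alternatives. The scripts were tested on simulated data. Same-numbered fed and fasted datasets share a preparation batch in the supplement of the study. The labels name no batch, so the match of same-numbered libraries to these datasets is inferred, with fed replicate 3 alone by elimination. Deviations of same-numbered libraries from group means correlated at 0.292 and 0.291 in mitochondria-rich barcodes (12434 genes) and at 0.353 and 0.479 in kept nuclei. The deviations of the fasted libraries mirror each other, so these values are not independent, and other pairings were not tried.

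Named genes were the 15 of largest difference in each direction, the called genes, the genes of smallest adjusted p in the interaction, list members, mt- genes and transgenes. Members and lists were chosen with earlier results of these data known. Gene lengths and positions came from GENCODE vM39 (GRCm39) and start windows from RefSeq (GRCm38.p6), where 3283 of 4104 genes matched. Gene models without a name were counted but not described, and some genes are not reported here.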

Additional observations from a re-analysis of the deposited data

How the results depend on the processing

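The 9 feeding calls became 46 with the likelihood ratio test, 73 with no filter on low counts, 195 with the replicate block and, added after seeing the data, 386 with the block and the likelihood ratio test, 23 with the block and DESeq2 and 270 with the block in barcodes under 2000 genes; leaving out 1 library gave 5 to 97. DESeq2 called 12 genes, 5 of them among the 9. The interaction count of 0 became 54 (likelihood ratio), 77 (DESeq2), 99 (no filter), 53 (mt- genes kept), 22 (mt- share of at least 10%), 41 (equal depth), 239 (replicate block), 1 (barcodes under 2000 genes, added) and 0 to 111 without 1 library. The kept-nuclei count of 0 became 288 (block), 167 (likelihood ratio), 112 (DESeq2) and 0 to 47 without 1 library, all added. With no filter on level, 2250 genes were 2-fold higher and 1221 lower, and 1202 were lower with mt- UMIs in the totals. That scaling moved the list medians against nuclei to 2.21 (neuronal cytoplasm), -0.61 (synaptic vesicle), -0.87 (striatal output), -1.58 (long neuronal), 3.06 (glycolysis) and 0.92 (fasting response). At an mt- share of 10% striatal output reversed to 0.24 and fasting response reached 1.25, and under 2000 genes the latter was 0.18. Of the fasted-over-fed medians, neuronal cytoplasm was -0.0907 with the block and -0.170 to 0.0619 without 1 library, striatal output -0.0559 to 0.266, glycolysis -0.0600 to 0.136, fasting response 0.78 to 1.03 and immediate-early genes -0.0153 to 0.264. The share difference of 23.9 percentage points reversed to -10.2 for barcodes under 500 genes, of which fed replicate 3 and fasted replicate 2 had 0, so other results could not be run on them; without 1 library it was 8.56 to 38.8. In barcodes under 2000 genes Itgad, Ptgds, Plin4, Hif3a and Fkbp5 lost their call at edgeR adjusted p of 0.0533, 0.0608, 0.0621, 0.261 and 0.0928. None of the 9 genes reversed under any alternative. The cause of these moves was not tested. With 1 fasted library left, it is assumed to vary like the others. The 468423 UMIs of fed replicate 3 limit genes under about 10 CPM to few counts there.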

Other observations

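The 195 genes called with the replicate block, which rest on 1 residual degree of freedom, include RNAs outside the lists, picked here after their values were seen. Etnppl, a phospholyase of astrocytes, stood at 41.8, 23.6 and 19.2 CPM in the mitochondria-rich barcodes of the fed and 81.7 and 65.4 CPM in those of the fasted libraries (log2 fold change 1.08, edgeR adjusted p = 0.000466 with the block, 0.158 without). It was higher in each fasted than in each fed library. Hmgcs1, which acts early in cholesterol synthesis, stood at 199, 134 and 109 against 129 and 89.5 CPM, so its groups overlapped although each fasted library lay below the fed library of its own number (-0.63, edgeR adjusted p = 0.00437 with the block, 1 without). The homeodomain protein Hopx, at 145, 168 and 154 against 79.0 and 83.2 CPM (-0.96, edgeR adjusted p = 7.2e-05 with the block, 0.202 without), did not overlap.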
